A study of Mus musculus with 6 samples.

Results

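The annexins are proteins that bind negatively charged phospholipids when calcium rises, and through this they hold membranes together, take part in exocytosis and close wounds in the plasma membrane. S100a10 is a small protein of the S100 family that forms a complex with Anxa2 and carries membrane proteins, among them the nociceptor sodium channel Nav1.8, to the cell surface. The values here cover 9 genes of this group (Anxa1, Anxa2, Anxa3, Anxa4, Anxa5, Anxa6, Anxa7, Anxa11 and S100a10) in dorsal root ganglia (DRGs) of mice that lack the transcription factor Meis1 in nociceptors. The genes were chosen by their family name around Anxa4, which was itself chosen by its higher intensity in Meis1cko than in control DRGs on these same arrays. Its difference between genotypes is therefore given as a description without a test.

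At P60, when the mice were 2 months old, RNA was taken from DRGs of the cervical, thoracic and lumbar levels and put on Affymetrix arrays, 1 per mouse, for 3 mice of each genotype. Meis1cko mice carry the floxed Meis1 allele Meis1 F, in which Cre removes exon 8, together with Nav1.8-Cre, a transgene whose Cre is driven from the Nav1.8 promoter region in most nociceptors. The floxed allele was made in J1 embryonic stem cells from 2 targeted clones, and chimeras were mated with C57BL/6 mice. The labels give the other group only as control. The behavioural tests of the study used Meis1 F/F littermates as controls, but which of these alleles the control mice of the arrays carried, and the sex of the mice, are not given in the sources used here. Whole ganglia were measured, so fewer cells of a type and less RNA per cell cannot be told apart, and cells without Cre contribute to every value. Meis1 itself had intensities of 110, 144 and 90.2 in control mice and 66.0, 72.1 and 64.2 in Meis1cko mice on its brightest probe set. The genotypes did not overlap there, and the log2 difference was -0.74 (SE 0.18). A dimmer probe set of Meis1 (mean 33.4) had 0.13, with all Meis1cko mice above all control mice. Its dimmest (mean 19.3) had -0.16, with overlap. Whether the probes lie in the deleted exon was not analysed here.

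Of the 9 genes, 8 have at least 1 probe set listed for them alone, and these 8 hold 20 of the 45037 probe sets tested. The only probe set that lists Anxa11 lists 2 other genes beside it, and no value is given for Anxa11. Each gene is represented by its brightest probe set, that is, the highest mean log2 intensity over the 6 arrays, and the other 12 probe sets are given beside it. The brightest probe set of each of the 8 genes lies above the median of all probe sets (a mean intensity of 65.9), and 5 of the other probe sets lie below it. Values are normalized intensities on a linear scale, and differences are Meis1cko minus control on the log2 scale. Since a probe's brightness depends on its sequence, the levels of different genes are not compared.

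The replicate 3 array of each genotype stood apart from the other 4 arrays. Both replicate 3 arrays lay above the other 4 for 11.4% and below them for 30.2% of the 18193 genes measured by a probe set that lists no other gene. On the control probe sets of Actb, the log2 ratio of the 3′ to the 5′ end was 0.42 in control and 0.44 in Meis1cko replicate 3, and between 1.23 and 1.66 on the other arrays. Within each replicate number it was higher in the Meis1cko array (1.66 against 1.23, 1.32 against 1.30, and 0.44 against 0.42). Arrays of the same replicate number deviated together, most clearly for replicate 3. Values are therefore also given within the pairs that share a number.

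Anxa4 lies at chr6:86736840-86793634 (GRCm38.p6), and RefSeq places a start of transcription at both of the positions shown here. These are the promoter windows of the member whose signal differed between genotypes, each from 250 bases before to 50 bases after the start, on the minus strand. Capitals mark TGACAG, the core of the sequence that Meis proteins bind, searched on both strands (its reverse complement is CTGTCA).
Anxa4 start 1, chr6:86793535-86793834: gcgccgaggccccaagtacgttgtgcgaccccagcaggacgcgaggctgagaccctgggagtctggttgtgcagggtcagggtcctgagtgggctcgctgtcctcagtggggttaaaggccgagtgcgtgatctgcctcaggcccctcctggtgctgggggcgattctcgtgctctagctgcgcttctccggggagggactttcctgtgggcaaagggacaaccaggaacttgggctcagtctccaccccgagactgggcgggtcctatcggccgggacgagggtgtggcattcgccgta
Anxa4 start 2, chr6:86775065-86775364: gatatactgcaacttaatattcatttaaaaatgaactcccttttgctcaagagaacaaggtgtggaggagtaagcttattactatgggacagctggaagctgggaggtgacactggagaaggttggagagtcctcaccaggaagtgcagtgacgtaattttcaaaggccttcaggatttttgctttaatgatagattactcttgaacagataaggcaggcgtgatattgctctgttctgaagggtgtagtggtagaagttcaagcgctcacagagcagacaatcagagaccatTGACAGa
The first window has a GC content of 65.3% and holds 20 CpG dinucleotides, and the second has 43.0% and 3. The letters TGACAG occur once, at bases 294 to 299 of the second window. Over all 32851 promoter windows of this length, 19.2% hold them, and of the 8 windows found for the members, 4 do (1 each of Anxa2, Anxa4, Anxa5 and Anxa11). A match is a description of the letters and not of binding, which these arrays do not measure. The promoter table gave no window for Anxa3, Anxa6 or S100a10.

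Anxa4, which in epithelia gathers at membranes and brings them together on calcium entry, was brighter in each of the 3 Meis1cko mice than in any control mouse, on all 3 of its probe sets. On the brightest the control mice had 482, 415 and 347 and the Meis1cko mice 982, 801 and 727. The lowest Meis1cko value was thus above the highest control value. The mean was 415 ± 67.7 in control and 836 ± 131 in Meis1cko mice (SD, n = 3 mice each), a ratio of 2.02 and a log2 difference of 1.01 (SE 0.17). Within the pairs of arrays 1, 2 and 3 the ratio was 2.04, 1.93 and 2.09. On this probe set the difference thus varied less from pair to pair than the level varied between mice of the same genotype.

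The other Anxa4 probe sets were dimmer and had larger differences. On the second the control mice had 106, 74.3 and 126 and the Meis1cko mice 361, 350 and 453, with means of 102 ± 25.8 and 388 ± 56.5 (SD, n = 3) and a log2 difference of 1.95 (SE 0.21). On the dimmest, an x_at probe set, whose probes can also match other transcripts, the intensities were 66.9, 47.9 and 61.8 in control and 186, 167 and 173 in Meis1cko DRGs, a log2 difference of 1.59 (SE 0.15). The ratio of the means was thus 2.02, 3.81 and 2.98 on the 3 probe sets. Within pairs 1, 2 and 3 the ratio varied more on the dimmer ones, with 3.42, 4.71 and 3.61 on the second and 2.79, 3.49 and 2.80 on the dimmest. Which transcripts of Anxa4 each probe set detects was not analysed here, and the difference between the probe sets was not tested.

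**Figure D1:**
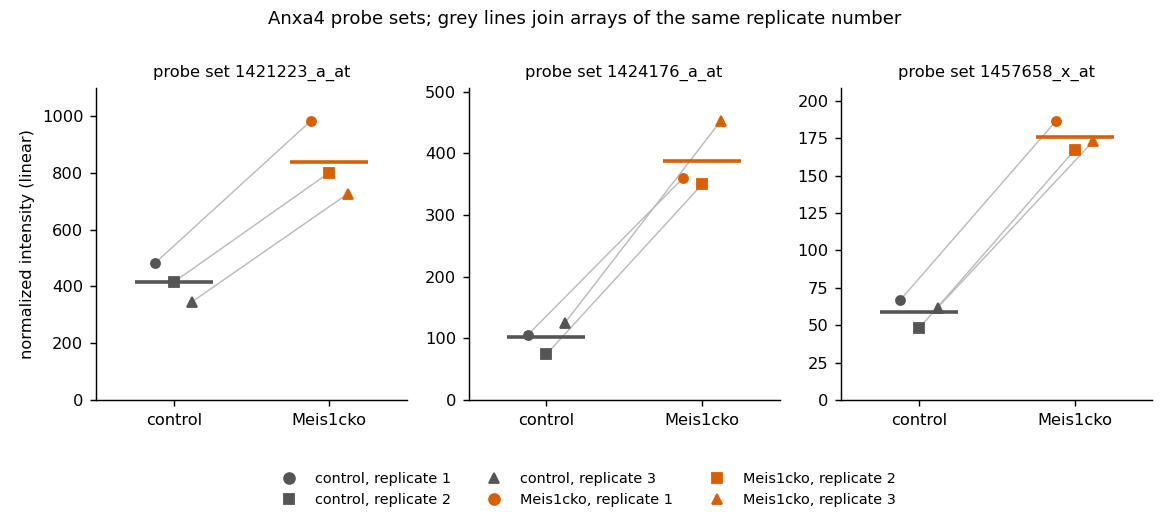
Normalized intensity (linear scale, from 0) of the 3 Anxa4 probe sets in each mouse, by genotype, with bars at the means of 3 mice and grey lines between arrays of the same replicate number. Each line rises, and for the brightest probe set control mice span 347 to 482 and Meis1cko mice 727 to 982.

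The direction was the same on each Anxa4 probe set under the alternatives run. Since the genotypes did not overlap on these probe sets, leaving out arrays could not turn it, and no support is drawn from this. Over the reported values and the 16 alternatives that keep single probe sets, the log2 difference lay between 0.89 and 1.13 on the brightest probe set, between 1.53 and 2.12 on the second and between 1.05 and 1.69 on the dimmest. Without both replicate 3 arrays the values were 0.99, 2.00 and 1.64. In the replicate 3 pair alone the log2 differences were 1.07, 1.85 and 1.49. The part of RNA quality in these values was not tested.

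Over all 45037 probe sets, limma passed 0.0155% at an adjusted p under 0.05, and none of the 8 measured members was among them. At an unadjusted p under 0.05, limma passed 2.32% and the methods' t-test 3.04% of all probe sets, and of the 8 members each passed 1, Anxa4 (0 after adjustment). With the replicates paired, limma passed 0.0822% of all probe sets, among them all 3 of Anxa4 and none of the other 17 of the members. At the thresholds of the study's methods, a fold change over 1.5 and an unadjusted p under 0.05, limma passed 0.675% of all probe sets, again with the 3 of Anxa4 and none of the other 17. All Meis1cko mice lay above all control mice in 3.21% of the probe sets and below them in 3.43%, and of the 20 member probe sets 3 were in the first class (Anxa4) and 0 in the second. Since Anxa4 was chosen on this contrast, these counts describe it and are read no further.

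The other 7 measured members had log2 differences between -0.17 and 0.09 on their brightest probe sets, and their genotypes overlapped on all 17 of their probe sets. Their median was -0.08 (-0.05 with Anxa4), against -0.01 over the brightest probe sets of all genes. Over the 17 probe sets the differences lay between -0.17 and 0.15. In limma the adjusted p was 1 for each of them, and the width of the interval of each difference is given with the gene, since a p that misses the threshold does not show equal levels.

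**Figure D2:**
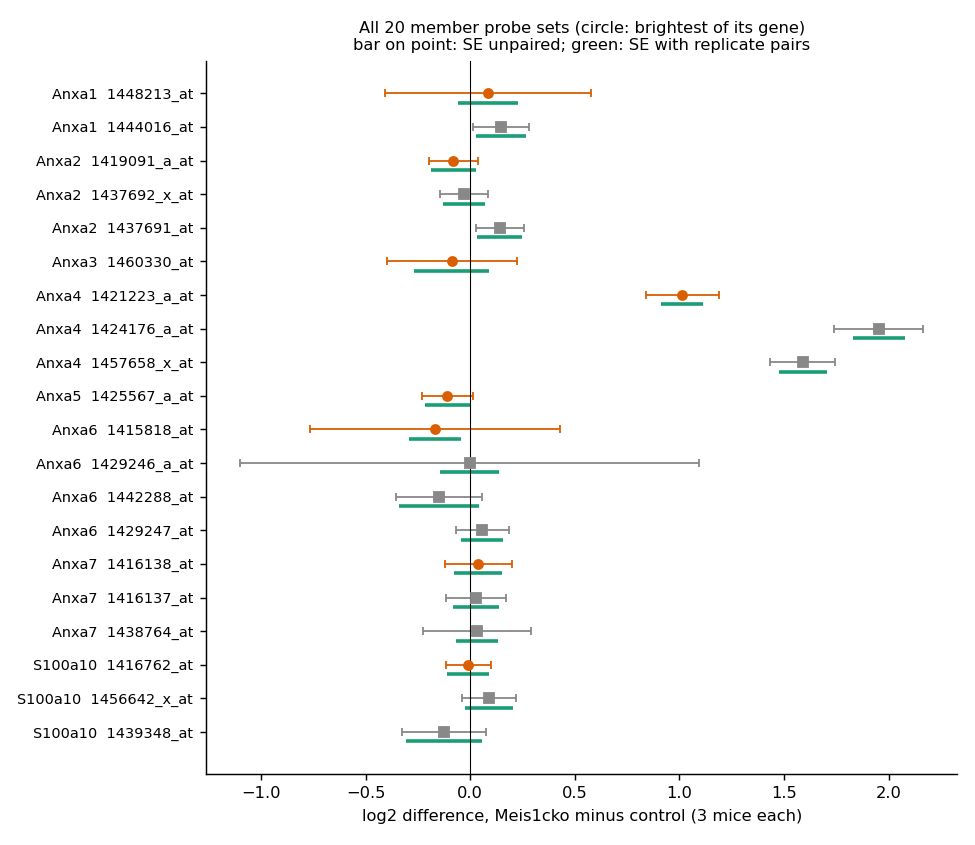
Log2 difference between Meis1cko and control DRGs (3 mice each) of the 20 member probe sets, with circles for the brightest of each gene, squares for the others, bars for the standard error without pairs and green lines for the standard error with the replicates paired. The 3 probe sets of Anxa4 lie at 1.01, 1.95 and 1.59, and the other 17 between -0.17 and 0.15.

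Anxa2 and S100a10, the partners in one complex, had nearly the same intensity in both genotypes. S100a10 (chr3:93555117-93564645) had 10210, 9472 and 10227 in control and 10044, 9749 and 9917 in Meis1cko mice. The highest of these 6 values was 1.08 times the lowest, the narrowest range of the 8 genes. The log2 difference was -0.01 (SE 0.11), with a 95% interval of -0.26 to 0.24 in limma, and it was 0.09 on the other bright probe set and -0.13 on a dim one. The sign of this small value changed under 5 of 17 alternatives.

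Anxa2 (chr9:69453683-69491792), which also binds actin and plasminogen at the cell surface, had 14274, 13034 and 13821 in control and 12122, 12728 and 14077 in Meis1cko mice. The means were 13710 ± 627 and 12976 ± 1001 (SD, n = 3), a log2 difference of -0.08 (SE 0.12, 95% interval -0.36 to 0.19). Only Meis1cko replicate 3 lay within the range of the control mice. Its dimmer probe sets had -0.03 and 0.14.

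Anxa5 (chr3:36448923-36475887), which binds phosphatidylserine on the outer face of dying cells and shields membranes, had 11708, 10930 and 12039 in control and 9882, 10481 and 11864 in Meis1cko mice. The log2 difference was -0.11 (SE 0.12, 95% interval -0.40 to 0.18) on its only probe set. As with Anxa2, Meis1cko replicate 3 was the array that overlapped the control mice. Without both replicate 3 arrays the log2 differences were -0.14 for Anxa2 and -0.15 for Anxa5, and the genotypes of these genes then no longer overlapped. With 2 arrays a genotype, Meis1cko lay below control in 17.5% and above it in 15.1% of all probe sets, so that little can be read from this.

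Anxa7 (chr14:20455261-20480133), or synexin, which promotes the fusion of secretory granules, had 3041, 2956 and 3700 in control and 3622, 2770 and 3589 in Meis1cko mice. The ranges of the genotypes overlapped, with a log2 difference of 0.04 (SE 0.16, 95% interval -0.33 to 0.41). Its other probe sets had 0.03 each.

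Anxa1 (chr19:20373434-20390671), an inhibitor of phospholipase A2 signalling that acts in the resolution of inflammation, varied more between mice of a genotype than between genotypes. It had 863, 357 and 244 in control and 698, 441 and 292 in Meis1cko mice, so that the replicate 1 array was the highest and the replicate 3 array the lowest in both genotypes. The means were 488 ± 330 and 477 ± 205 (SD, n = 3), a log2 difference of 0.09 (SE 0.49, 95% interval -1.07 to 1.24). With the replicates paired the standard error was 0.14 and the interval -0.25 to 0.42. A change of Anxa1 smaller than this was not detectable with 3 mice per genotype. Its other probe set was dim, at 13.8 to 17.7.

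The neutrophil genes S100a8 and S100a9 had their highest control value on the same array as Anxa1. S100a8 had 6258, 3045 and 1708 in control and 4016, 4134 and 2063 in Meis1cko mice. The summed intensity of the 6 measured neutrophil markers ranged from 3861 to 12416 in control and from 4533 to 7648 in Meis1cko mice, and Fpr2, which encodes a receptor for Anxa1, had 189, 140 and 71.5 in control and 142, 129 and 80.5 in Meis1cko mice. The neutrophil markers thus differed between mice of one genotype, and their part in the spread of Anxa1 was not tested.

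Anxa3 (chr5:96793385-96845968), an annexin found on neutrophil granules, had 216, 106 and 134 in control and 178, 147 and 97.7 in Meis1cko mice. The log2 difference was -0.09 (SE 0.31, 95% interval -0.82 to 0.64), and its sign turned without control replicate 1 (0.20), without Meis1cko replicate 3 and without both replicate 3 arrays (0.10). Within the pairs the log2 difference was -0.28, 0.47 and -0.46, so that its sign differed between pairs.

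**Figure D3:**
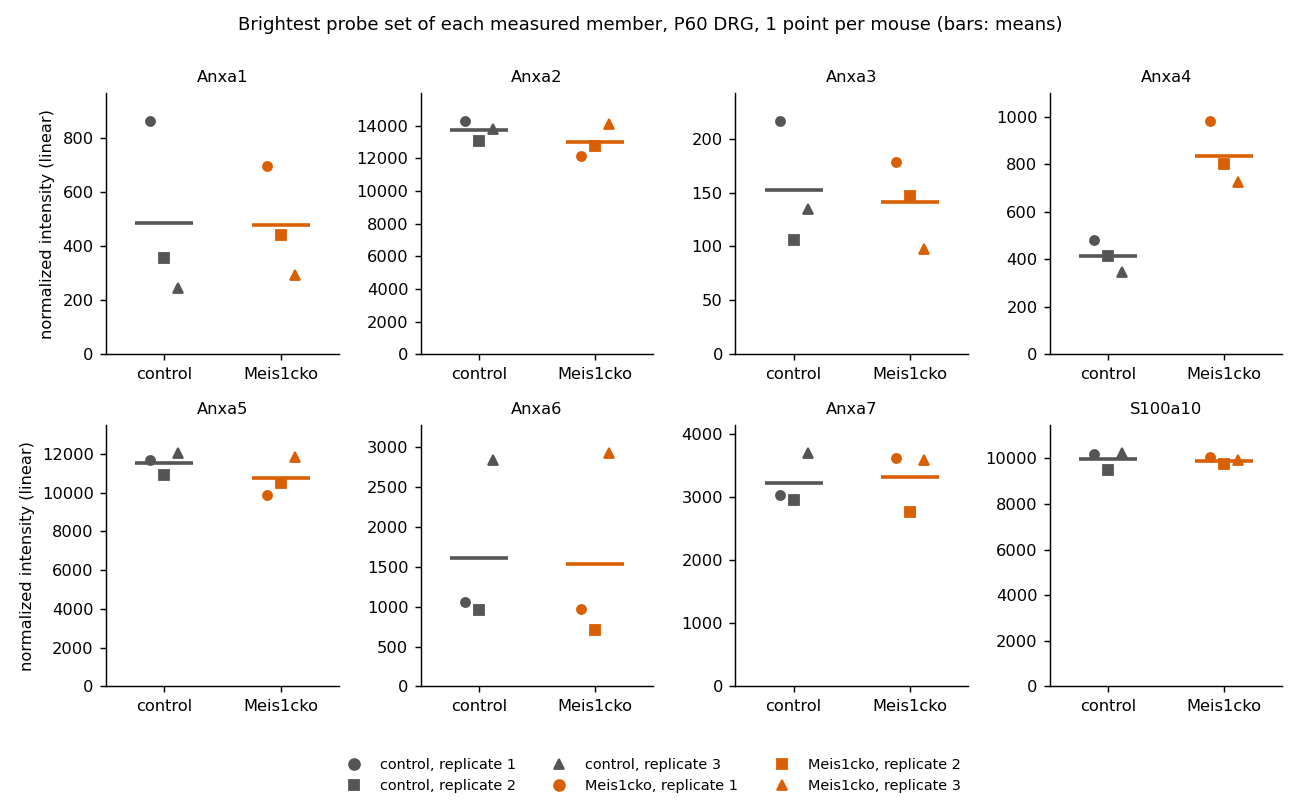
Normalized intensity (linear scale, from 0) of the brightest probe set of the 8 measured members in each of 3 control and 3 Meis1cko mice, with bars at the means and a symbol for each replicate number. The genotypes separate for Anxa4, the replicate 3 arrays lie highest for Anxa6 in both genotypes (2837 and 2927), and S100a10 has the narrowest range.

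Anxa6 (chr11:54978953-55033471), which carries a duplicated annexin core and links membranes to the cytoskeleton, differed between replicate numbers far more than between genotypes. Its brightest probe set had 1060, 956 and 2837 in control and 974, 708 and 2927 in Meis1cko mice. The replicate 3 arrays averaged 3.12 times the other 4, a ratio that 0.0495% of all genes reached on their brightest probe sets. On the second probe set the intensities were 195, 191 and 1502 in control and 221, 146 and 1719 in Meis1cko mice, and the replicate 3 arrays averaged 8.55 times the others. The dim probe sets of Anxa6 had ratios of 0.88 and 0.89.

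The log2 difference of Anxa6 between genotypes was -0.17 (SE 0.60, 95% interval -1.57 to 1.23), and with the replicates paired the standard error fell to 0.12 and the interval was -0.46 to 0.12. Without both replicate 3 arrays the difference was -0.28 (SE 0.19). Leaving out a single array moved it between -0.78 (without Meis1cko replicate 3) and 0.33 (without control replicate 3). The Actb end ratio moved with the replicate 3 arrays, and its part in the values of Anxa6 was not tested.

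**Figure D4:**
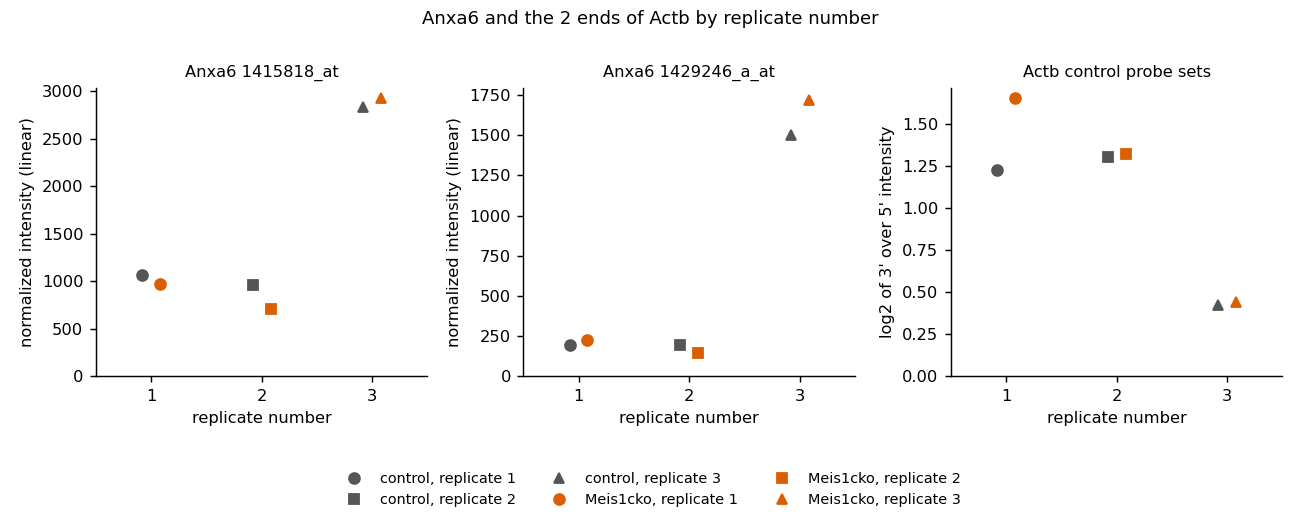
Normalized intensity (linear scale, from 0) of the brighter Anxa6 probe sets and the log2 ratio of the 3′ to the 5′ control probe set of Actb, for each array by replicate number and genotype. Both replicate 3 arrays lie far above the others for Anxa6 (2837 and 2927 on the brightest probe set) and far below them for Actb (0.42 and 0.44).

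Both replicate 3 arrays were also above the other 4 for Anxa5 and below them for Anxa1. The standard error of the difference between genotypes was 4.84 times smaller with the replicates paired for Anxa6, 3.44 times for Anxa1, 1.73 times for Anxa3, 1.71 times for Anxa4 and 1.39 times for Anxa7, and it changed less for Anxa5 (1.16 times), Anxa2 (1.09 times) and S100a10 (1.07 times).

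The 5 genes whose log2 intensity followed Anxa4 most closely over the 6 arrays, among 12152 other genes at or above the median intensity, were Mob3c, Rdh13, 9930012K11Rik, Tardbp and Vwa8, with Pearson correlations of 0.997, 0.996, 0.994, 0.989 and 0.985 and a Spearman correlation of 1 for each. These are descriptions over 6 arrays that share the split by genotype. Of the 5, 9930012K11Rik had the difference nearest in size to that of Anxa4, with intensities of 151, 132 and 106 in control and 249, 219 and 195 in Meis1cko mice, a log2 difference of 0.78. Those of the other genes lay between 0.16 and 0.25.

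On chromosome 6, the 19 measured genes within 500 kb of Anxa4 had log2 differences between -0.27 and 0.25, and Meis1cko mice lay above all control mice in 0 and below them in 2 of the 19 (Pcyox1 with -0.27 and Aak1 with -0.24). Over the brightest probe sets of all genes the shares were 3.12% above and 3.82% below. The nearest, Gmcl1, had -0.03. Within 5 Mb, a window chosen after the values were seen, 4 of 154 other measured genes (2.60%) passed the thresholds of the study's methods on their brightest probe sets, against 0.781% of all genes. These were Arhgap25, Dysf, Hk2 and Fbln2, with log2 differences of -1.49 (SE 0.15), 0.79 (SE 0.17), 0.73 (SE 0.30) and -0.61 (SE 0.24). By overlap, Meis1cko mice lay above all control mice in 1.95% and below them in 5.19% of the 154 genes. The shares of all genes were 3.12% and 3.82%. Arhgap25, which encodes a regulator of Rac, lies 0.665 Mb from Anxa4. None of the 37 measured genes between Dysf and Anxa4 passed. Meis1 lies on chromosome 11, as does Anxa6, and Scn10a, whose promoter region drives the Cre, on chromosome 9. Nav1.8-Cre is a transgene, and the chromosome that carries it is not given in the sources used here. Which strain the chromosome 6 region came from in each mouse is not given in the sources used here, and the part of strain differences in these values was not tested.

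**Figure D5:**
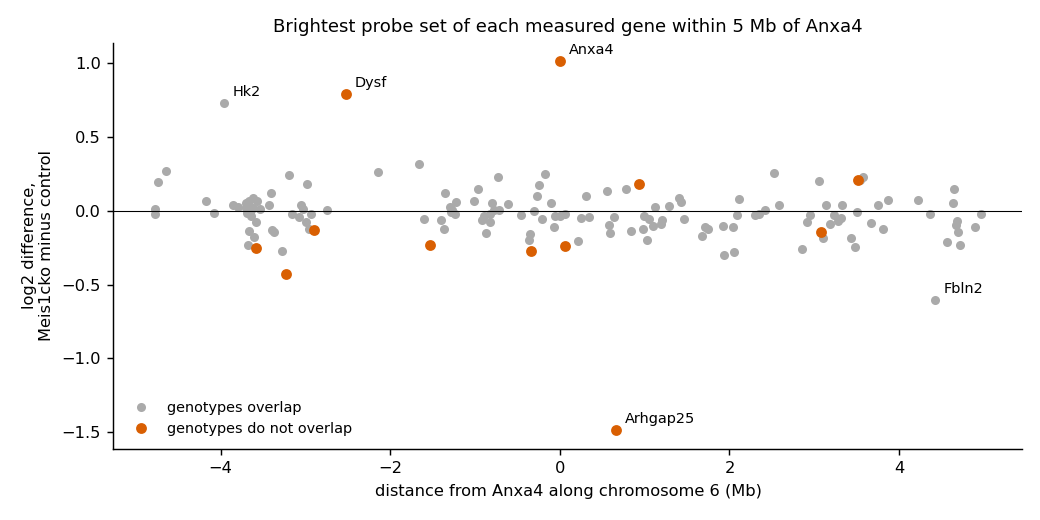
Log2 difference between Meis1cko and control DRGs (vertical axis) of the brightest probe set of each measured gene within 5 Mb of Anxa4, against its distance from Anxa4 in Mb, with orange points where the genotypes do not overlap. Anxa4 (1.01), Dysf (0.79) and Arhgap25 (-1.49) are the genes past the thresholds of the study's methods whose genotypes do not overlap, and Hk2 (0.73) and Fbln2 (-0.61) overlap.

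Genes that work with the annexins were taken from 6 lists, and none of their 58 measured genes passed the adjusted threshold of limma in either direction, with the replicates paired or not. Among 19 measured genes of membrane repair the median log2 difference was -0.04, and 5 lay above 0. Dysf, which encodes the muscle and vesicle protein dysferlin that acts with annexins at wounds of the plasma membrane, was the only one past the thresholds of the study's methods. It had 209, 239 and 269 in control and 438, 335 and 473 in Meis1cko mice, with no overlap, and an adjusted p of 1 in limma and 0.156 with the replicates paired. The genotypes also did not overlap for Vps4a (-0.12), Chmp2a (-0.13) and Chmp3 (-0.11), which were lower in Meis1cko mice. Over the brightest probe sets of all genes 0.781% passed the thresholds of the study's methods. Without overlap, 3.12% of all genes lay above and 3.82% below. Dysf lies 2.53 Mb from Anxa4 on the same chromosome.

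The 4 other annexins on the arrays (Anxa8, Anxa9, Anxa10 and Anxa13) were dim on every probe set used, with means of 38.8, 18.7, 12.3 and 15.9 over the 6 arrays, and had log2 differences of 0.07, 0.29, -0.12 and -0.15. The genotypes did not overlap for Anxa9, which was higher in Meis1cko mice, as were 3.12% of all genes on their brightest probe sets. None of the 4 passed, and values this low hold little information on their level in DRGs.

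Of the list of S100 proteins, 13 genes were measured beside S100a10, with a median log2 difference of -0.13 and 3 above 0. The list includes S100pbp (-0.13), which is not itself an S100 protein. S100a1 had 653, 521.1 and 574 in control and 483, 396 and 520.5 in Meis1cko mice. Its difference was -0.32 (SE 0.15), and all Meis1cko mice lay below all control mice, as in 3.82% of all genes. S100a16 and S100a3 had -0.24 and -0.23, with overlap. The glial calcium sensor S100b had 0.07. None passed over all probe sets.

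Of the 16 measured partners of S100a10, Anxa2 and Anxa11, 8 lay above 0 and the median was -0.01. Scn10a, which encodes the Nav1.8 channel that S100a10 brings to the surface, had 752, 696 and 804 in control and 1213, 950 and 993 in Meis1cko mice. The genotypes of Scn10a did not overlap. Its log2 difference was 0.48 (SE 0.14), which missed the adjusted threshold in limma (adjusted p = 0.360 with the replicates paired). The Meis1cko mice carry a Cre transgene made with the promoter region of this gene, whose part in this value was not tested. S100a10 had a log2 difference of -0.01. Plg, the gene of plasminogen, and Sri, which encodes the calcium-binding protein sorcin, had -0.23 and -0.17. Of the cytosolic phospholipases A2, the enzymes that Anxa1 restrains, 5 were measured. The mean intensity of Pla2g4e was 278 ± 40.5 in control mice against 147 ± 97.2 in Meis1cko mice (SD, n = 3), a log2 difference of -1.11 (SE 0.41) that was past the thresholds of the study's methods although the genotypes overlapped. Within the pairs it had -1.50, -1.98 and 0.16, and without both replicate 3 arrays it had -1.74 and passed (adjusted p = 0.0320 in limma). The other 4 lay between -0.29 and 0.20. The only measured receptor of Anxa1, Fpr2, had -0.12.

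Of 14 lists of cell type markers, the summed intensity of 2 separated the genotypes. Without any difference, a share of 0.1 of the possible orderings of 3 and 3 arrays separates them, so little can be read from this count. Of all probe sets, 3.21% lay above and 3.43% below control without overlap. All 6 measured fibroblast markers had a log2 difference below 0, with sums of 10569 to 17256 in control and 7590 to 9616 in Meis1cko mice. Lum, which encodes the matrix protein lumican, had -1.34 (SE 0.14) and missed the adjusted threshold of limma (adjusted p = 0.0686), which it passed with the replicates paired (adjusted p = 0.00717). Col3a1, a collagen gene, had -0.73 (SE 0.27). The 4 measured B cell markers had sums of 220 to 454 in control and 515 to 752 in Meis1cko mice, but their median log2 difference was 0.01, and Ighm, an immunoglobulin heavy chain gene, was the 1 marker without overlap (1.61, SE 0.28). The sums of the 10 sensory neuron markers (102611 to 115920 in control and 106596 to 118274 in Meis1cko mice), the 6 satellite glia markers (25904 to 29978 and 26212 to 28019), the 4 measured Schwann cell markers (24067 to 26452 and 22756 to 24197) and the 9 macrophage markers (1201 to 1856 and 803 to 1481) overlapped. Single markers differed within lists whose sums overlapped. Of the 7 markers of mural and smooth muscle cells, the smooth muscle actin gene Acta2 had 490, 376 and 338 in control and 840.3, 623 and 576 in Meis1cko mice (log2 difference 0.76, SE 0.20), and Tagln had 0.47 (SE 0.16), both without overlap and in the same direction as Anxa4. The other markers of that list overlapped, with Rgs5 at 0.29 (SE 0.29), Pdgfrb at 0.06, Myh11 at 0.05, Cspg4 at -0.06 and Des at -0.002. The median of the mural and smooth muscle list was 0.06, and its sums were 4421 to 6344 in control and 4875 to 8309 in Meis1cko mice. The endothelin receptor gene Ednrb, on the satellite glia list, had -0.67 (SE 0.13) and Kcnj10 had -0.36 (SE 0.12), both without overlap. Of the 6 satellite glia markers 2 lay above 0 (Glul with 0.24 and Cdh19 with 0.13), and the median was -0.09. The macrophage gene Mrc1 had -0.90 (SE 0.33) with overlap. The median of the 9 macrophage markers was -0.34, and 1 of them lay above 0. Acta2, Tagln, Ednrb and Mrc1 each missed the adjusted threshold in limma, paired or unpaired. The defining markers of sensory neurons were all above the median intensity. The part of cell composition in the difference of Anxa4 was not tested.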

How the data were processed

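Total RNA of DRGs from 3 Meis1cko and 3 control mice was hybridized to Affymetrix mouse genome 430 v2.0 arrays. Per the methods, the authors read the images in the GeneChip Command Console and analysed them in GeneSpring. The deposited values are normalized linear intensities, and the authors' method of summarising probes is not given in the sources used here. All values lie above 0, and array medians lay between 62.5 and 65.5.

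Intensities were taken to log2 (values under 1 set to 1, of which there were 0), and the 64 control probe sets were left out. Gene symbols came from the annotation of the array, and 34945 of 45037 probe sets list 1 gene, 932 several and 9160 none. The comparison of genotypes used limma 3.58.1 (lmFit, eBayes) under R 4.3.3 with no block, over all probe sets, with Benjamini-Hochberg adjustment and a threshold of 0.05. The script was tested on simulated data. Arrays of equal replicate number deviated from their group means together (r = 0.424, 0.535 and 0.766), so the numbers were taken to pair the arrays. Meis1cko 1 with control 2 had r = 0.337 and Meis1cko 2 with control 1 had 0.319, so replicates 1 and 2 were less clearly told apart than replicate 3. The pairing comes from these same data, since the labels do not say what a number marks, and the paired values rest on it. Intervals are 95% intervals of the fit.

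The members and gene lists were chosen with earlier results of these data known. The text names all members, Meis1 and the 5 genes most like Anxa4. Of each pathway list it names genes past a threshold or else up to 3 with the smallest p. Named after their values were seen were Anxa10, S100b, S100a8, S100a9, S100pbp, Vps4a, Chmp2a, Chmp3, the single cell type markers and genes near Anxa4. The marker and pathway lists are described by counts and medians. Promoter windows are RefSeq's (GRCm38.p6). Protein sequences were not used here. The alternatives were a trend, the methods' t-test, other scalings, a filter, offsets, the replicate block, left-out arrays and averaged probe sets. Precision is limited by there being 3 arrays per genotype.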

Additional observations from a re-analysis of the deposited data

How the results depend on the processing

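Anxa4 was higher in Meis1cko DRGs under all 17 alternatives, and its log2 difference was 1.52 on the mean of its probe sets. Its sign could not turn with arrays left out, since its genotypes did not overlap. The trend, the methods' t-test, the filter and the replicate block leave the estimate unchanged. The number of members past the adjusted threshold was 0 without a block, 1 with the replicate block, 1 on averaged probe sets, and 0 with each array left out in turn. For members past the thresholds of the methods it was 1 throughout, also with each array left out (1 to 1). Genotypes did not overlap for 1 member, for 1 to 3 with an array left out, and for 3 without both replicate 3 arrays. Signs turned under some alternative for Anxa1 (4), Anxa2 (1), Anxa3 (3), Anxa6 (3), Anxa7 (4) and S100a10 (5), and under none for Anxa5 and Anxa4. Anxa2 was at 0.01 on averaged probe sets.

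Over the whole table, limma called 7 probe sets at an adjusted p under 0.05. There were 0 in the methods' t-test (1371 at an unadjusted p under 0.05), 11 after quantile normalization, 1 with an offset of 16, 1 with an offset of 50, 37 with the replicate block, 26 without both replicate 3 arrays, and 1 to 15 with an array left out. Past the thresholds of the methods were 304, and 185 in the t-test, 134 with an offset of 50, 583 without both replicate 3 arrays and 257 to 654 with an array left out. Genotypes did not overlap in 2992, in 1337 of those at or above the median intensity, in 14697 without both replicate 3 arrays, and in 5043 to 9410 with an array left out, where fewer arrays separate more easily. The replicate block changed no other call of a member.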
